A study of Mus musculus with 16 samples.

Results

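Collagens, laminins and integrins build the extracellular matrix and fasten cells to it. Members were the protein-coding genes of GENCODE M21 whose symbols follow the naming pattern of collagen chains, laminin chains and integrin subunits, leaving out the integrin-binding or integrin-like genes named Itgb1bp, Itgb3bp and Itgbl1. This gave 83 of the 21951 protein-coding genes in the files, namely 44 collagen chains, 11 laminin chains, 27 integrin subunits and Col4a3bp. Col4a3bp encodes the ceramide transfer protein and shares only the letters of its symbol with collagens, so it is given on its own and the counts are over the other 82. Of these, 71 passed a filter on low counts and were tested, made up of 38 collagens, 11 laminins and 22 integrins. The 11 others were Col19a1, Col24a1, Col3a1, Col28a1, Col10a1, Col4a6, Itga2, Itgad, Itgax, Itgb2l and Itgb8, none of which had more than 18 estimated counts in a library.

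Laminins are secreted trimers of an α, a β and a γ chain that assemble into the sheet-like basement membrane, where type IV collagen forms the covalent network and nidogens and perlecan link both. Integrins are αβ receptor pairs that bind these proteins from the cell side. Pluripotent cells of the mouse embryo lie on a basement membrane rich in laminin, and mouse embryonic stem cells (ESCs) make their own laminin and attach through integrins. Dgcr8 binds primary microRNA transcripts so that the nuclease Drosha can cut them, and cells without it lack canonical microRNAs.

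Poly(A) RNA was sequenced from mouse ESCs in 4 groups of 4 libraries, 16 in all. KO paused cells carried the Dgcr8 knockout and had been grown with an mTOR inhibitor, labelled mTORi, to day 2, and KO normal cells carried the knockout in normal ESC culture. WT paused cells were wild type and grown with the inhibitor to day 2, and WT normal cells were wild type in normal culture. The kinase mTOR drives growth when nutrients are plentiful, and blocking it holds ESCs in a slowed, diapause-like state called paused. All groups had 800000 cells per sample. The inhibitor's name and dose, the deleted part of Dgcr8, the number of knockout clones and the strain were not given in the sources used here. The labels do not say that the 4 libraries of a group came from separate cultures, so the p-values speak of the spread between these libraries alone.

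Libraries held 88377380 to 116646028 estimated counts. The summed level of 9 pluripotency markers was 6767 to 6988 counts-per-million (CPM) in KO paused, 6263 to 6364 in KO normal, 6166 to 6401 in WT paused and 5626 to 5884 in WT normal libraries. Dgcr8 itself had 17067 to 21779 estimated counts in KO paused, 22468 to 25885 in KO normal, 5092 to 5726 in WT paused and 3910 to 4924 in WT normal libraries, and since the deleted part is unknown this total does not check the labels. The Y-linked gene Ddx3y had 25 to 44 counts in KO paused and 13 to 21 in KO normal libraries, against 8540 to 10179 in WT paused and 8326 to 10946 in WT normal libraries. The KO and WT lines therefore differed in more than Dgcr8, and in every KO against WT comparison the line and the knockout cannot be told apart. WT normal replicates 1 and 2 stood apart from replicates 3 and 4 (median chi-square over genes of 9.26 to 12.97 between the pairs, 2.07 and 2.43 within them). The same pairs stood apart less strongly in WT paused (3.43 to 4.45 between, 1.28 and 2.02 within) and KO normal libraries (3.48 to 5.58 between, 1.92 and 2.71 within). KO paused libraries did not show these pairs (2.12 to 4.99 between, 3.15 and 3.37 within).

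Many matrix genes made up a larger part of the mRNA in paused cells of both genotypes. Levels are relative to all counts of a library, so mRNA per cell was not measured. In KO cells 34 of the 71 tested members rose on pausing and 15 fell, against a background of 34.4% of all tested genes that rose and 32.8% that fell. In WT cells 29 rose and 13 fell, against 33.3% and 27.5% of all tested genes. The members' share was thus 47.9% higher and 21.1% lower in KO cells, and 40.8% higher and 18.3% lower in WT cells. The median log2 fold change of the members was 0.21 in KO and 0.12 in WT cells, beside 0.02 and 0.04 over all tested genes. Changes of at least 1 on the log2 scale were seen in 14 members upward and 3 downward in KO cells, where 9.23% and 6.08% of all tested genes passed the same rule. In WT cells 11 members passed upward and 4 downward, where the background was 6.14% and 4.17%. Across both genotypes 24 members rose in each, 7 fell in each, 3 (Col26a1, Col27a1 and Itga8) rose in KO but fell in WT cells and Col6a4 did the reverse. Here and below, a gene rose, fell or changed where edgeR's quasi-likelihood test gave a Benjamini-Hochberg adjusted p under 0.05 over 18944 genes. Changes are log2 fold changes ± SE, with paused over normal culture or KO over WT cells.

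Set against WT cells, KO cells had lower relative mRNA levels of 18 of the 38 tested collagens in paused culture and of 19 in normal culture. They had higher ones of 8 and 5. Of the 11 laminin chains 5 were higher and 4 lower in KO cells in paused culture, and 5 and 3 in normal culture, and of the 22 integrin genes 9 were higher and 8 lower in paused and 8 and 10 in normal culture. Over all 71 members 22 were higher and 30 lower in KO cells in paused culture, against 30.8% and 34.5% of all tested genes. In normal culture 18 were higher and 32 lower, against 34.1% and 34.1%. By at least 1 on the log2 scale, 6 were higher and 17 lower in paused culture, beside 6.46% and 11.8% of all genes, and 4 were higher and 12 lower in normal culture, beside 7.98% and 13.3%. Of the members, 27 were lower in KO cells in both cultures and 13 were higher in both. The pausing comparisons share libraries with the comparisons of KO against WT, so their values are given side by side only. The response to pausing itself differed between the genotypes for 26 members, by the test of the interaction. It was more upward in KO cells for 14 and more downward for 12, against 17.4% and 24.5% of all tested genes. By at least 1 on the log2 scale, 6 were more upward and 5 more downward, against 4.58% and 4.18%. With replicates 1 and 2 of each group alone the interaction counts were 9 upward and 14 downward, and with replicates 3 and 4 alone 15 and 12. The pausing counts in WT cells were 27 higher and 12 lower with replicates 1 and 2 alone, and 25 and 14 with replicates 3 and 4 alone. Since RNA was taken from whole cultures, fewer cells of a type and less RNA per cell cannot be told apart in any of these results.

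All 11 laminin chain genes were tested. On pausing 7 of them rose in KO cells and 7 in WT cells, beside 34.4% and 33.3% of all tested genes. The 2 that fell in KO cells, Lama3 and Lamb1, had log2 fold changes of -0.24 and -0.15 in WT cells, where neither passed. The median log2 fold change of the 11 chains was 0.64 in KO and 0.63 in WT cells. Levels between chains are compared in transcripts-per-million (TPM), which are scaled to transcript length. The γ1 chain gene Lamc1, part of most laminin trimers, was the most abundant, at 260.5 ± 16.8 TPM in KO paused, 176 ± 13.8 in KO normal, 161 ± 5.63 in WT paused and 121 ± 15.8 in WT normal cells (SD, n = 4 each). In WT normal cells Lama5 at 39.8 ± 1.89 TPM and Lamb1 at 39.5 ± 5.35 TPM followed, and these 2 did not differ beyond their spread. Lama1 had 23.3 ± 3.33 and Lamb2 10.1 ± 0.7 TPM in the same cells. In KO paused cells Lama5 had 74.8 ± 3.86 TPM, and Lamb1 at 33.2 ± 2.59 and Lamb2 at 30.8 ± 1.05 TPM did not differ beyond their spread. The median TPM ratio of all tested genes was itself 0.23 on the log2 scale for pausing in KO and 0.29 in WT cells, so changes between groups are given from counts and not from TPM.

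Lamb3 encodes the β3 chain of the laminin of epithelial anchoring sites and had 11.4, 15.2, 12.1 and 15 CPM in the KO paused libraries, 5.04, 5.27, 4.54 and 4.36 in KO normal, 3.35, 3.56, 3.34 and 3.71 in WT paused and 1.87, 1.5, 1.85 and 2.17 in WT normal. No group overlapped another, and the order was KO paused, KO normal, WT paused and WT normal from high to low. It rose on pausing by 1.48 ± 0.11 in KO (edgeR adjusted p = 8.27e-10) and 0.92 ± 0.12 in WT cells (edgeR adjusted p = 1.82e-06), and was higher in KO cells by 1.95 ± 0.11 in paused and 1.38 ± 0.12 in normal culture. Lama3, the α3 chain gene of the same trimer, showed another order of groups. It had 11.8, 10.8, 10.9 and 9.12 CPM in the KO paused libraries, 20.1, 20.4, 21.7 and 20.4 in KO normal, 11, 10.2, 14.3 and 14.7 in WT paused and 12.9, 13.5, 15.5 and 17.2 in WT normal. KO normal libraries were the highest, without overlap with any other group, while WT paused libraries overlapped both KO paused and WT normal libraries. Lama3 fell on pausing in KO cells, with a log2 fold change of -0.95 ± 0.11 (edgeR adjusted p = 1.01e-06), and this response differed from that of WT cells by -0.72 ± 0.16. The response of Lamb3 also differed, by 0.56 ± 0.16, but counts built from TPM and length turned that difference to -0.09, with no call.

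Lama5 encodes the α5 chain of the main laminin of pluripotent cells and had 533, 560.2, 519 and 562 CPM in the KO paused libraries, 279, 296, 295 and 276 in KO normal, 562, 592, 646 and 619 in WT paused and 357, 328, 331 and 324 in WT normal. Paused and normal libraries were far apart in both genotypes, and KO libraries lay just below WT libraries in each culture. Its rise on pausing was 0.92 ± 0.05 in KO and 0.85 ± 0.05 in WT cells, and KO cells were lower, at -0.15 ± 0.04 in paused and -0.23 ± 0.04 in normal culture. With replicates 1 and 2 alone the paused value of Lama5 was -0.08, with no call. Lama1, the α1 chain gene of the early embryonic laminin, had 112, 117.1, 119.7 and 124 CPM in the KO paused libraries, 113, 126, 127 and 118 in KO normal, 142, 167, 141 and 144 in WT paused and 168, 172, 131 and 134 in WT normal. Its pausing changes of -0.04 ± 0.08 in KO and -0.03 ± 0.08 in WT cells did not pass, and it was lower in KO cells, at -0.33 ± 0.08 in paused and -0.32 ± 0.08 in normal culture. Both α chains were thus lower in KO cells. Whether their pausing responses differed was not tested.

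Among the common β and γ chains, Lamc1 had 1277, 1309, 1202 and 1201 CPM in the KO paused libraries, 929, 994, 1019 and 952 in KO normal, 768, 806, 826 and 806 in WT paused and 807, 757, 656 and 663 in WT normal. KO libraries lay above WT libraries in both cultures, by 0.64 ± 0.06 in paused and 0.43 ± 0.06 in normal culture. Lamc1 rose on pausing in KO cells by 0.36 ± 0.06. Its rise of 0.15 ± 0.06 in WT cells lost the call when WT normal replicate 3 or 4 or WT paused replicate 3 was left out, at 0.09, 0.12 and 0.14. Lamb2, a β chain gene of mature basement membranes, had 68.8, 69.4, 68.2 and 71.2 CPM in the KO paused libraries, 44.7, 46.9, 44.9 and 41.6 in KO normal, 46.9, 47.6, 46 and 44 in WT paused and 28, 27.8, 32.2 and 30.8 in WT normal. It rose on pausing by 0.64 ± 0.05 in KO and 0.63 ± 0.05 in WT cells and was higher in KO cells by 0.59 ± 0.05 and 0.58 ± 0.05 in paused and normal culture, with no overlap in any of the 4 comparisons. Lamb1, the alternative β chain gene, fell on pausing in KO cells (-0.36 ± 0.07) and was lower in KO cells in paused (-0.42 ± 0.07) and normal culture (-0.22 ± 0.07), where the normal groups overlapped.

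The 3 remaining chains were low. Lamc3 averaged 0.666 ± 0.0973 CPM in KO paused, 0.128 ± 0.0565 in KO normal, 0.152 ± 0.0618 in WT paused and 0.0746 ± 0.0365 in WT normal libraries. It rose on pausing by 2.37 ± 0.32 in KO cells, and its rise of 1.02 ± 0.41 in WT cells (edgeR adjusted p = 0.0398) lost the call, at 0.75 to 1.05, without any of 6 WT libraries in turn. Lama2, the α2 chain gene of muscle and nerve, averaged 0.412 ± 0.0756 CPM in KO paused and 0.156 ± 0.0634 in KO normal libraries, and 0.402 ± 0.0545 in WT paused and 0.183 ± 0.0818 in WT normal libraries. Pausing was accompanied by a rise in both genotypes, by 1.41 ± 0.31 and 1.12 ± 0.30. Lama4, the α4 chain gene of blood vessels, averaged 0.872 ± 0.212 CPM in KO paused and 1.32 ± 0.221 in WT paused libraries and was lower in KO cells in paused culture, at -0.60 ± 0.21, a call lost without KO paused replicate 3 or 4 or WT paused replicate 2.

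**Figure D1:**
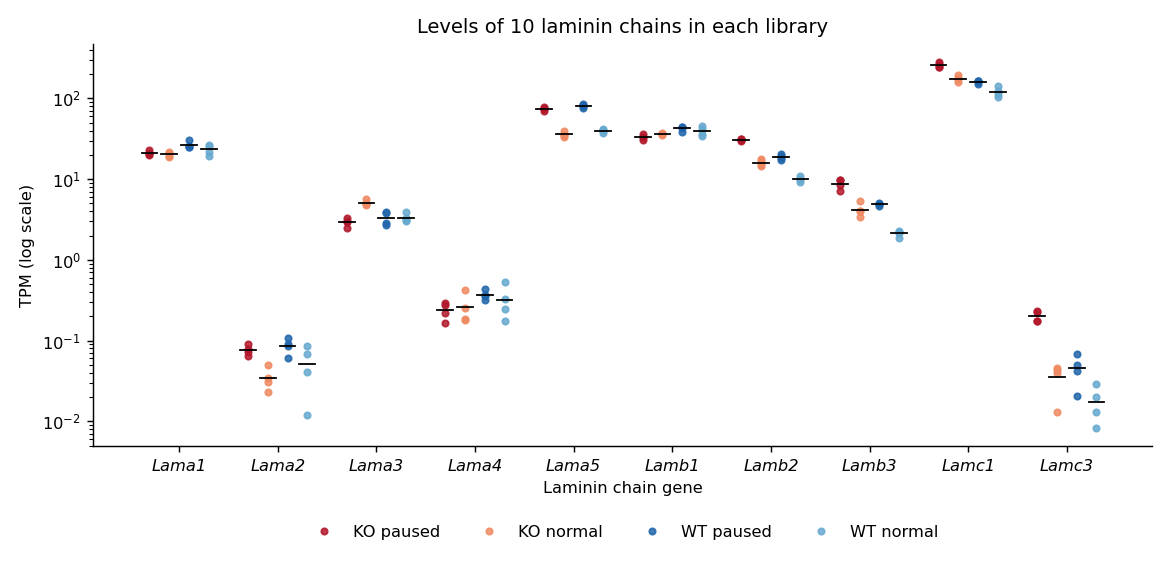
Level of 10 laminin chain genes in every library, in TPM on a log scale. Points are libraries, colours are the 4 groups and black bars are group means of 4 libraries. Lamc1 averaged 260 TPM in KO paused and 121 TPM in WT normal cells.

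Type IV collagen, the network collagen of basement membranes, is expressed from Col4a1 and Col4a2, which lie head to head. RefSeq places their start sites on opposite strands of mouse chromosome 8 in GRCm38.p6, so that the first 22 bases of one transcript are the reverse complement of the first 22 bases of the other, at chr8:11312805-11312826. The shared stretch is shown because both genes start in it, with a GC box in capitals.
Col4a1: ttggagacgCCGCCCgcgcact
Col4a2: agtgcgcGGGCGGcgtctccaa
The box was searched as GGGCGG on both strands, and it occurs in the first 22 bases of 1296 of 27025 genes in the same table, or 4.8%. Counting did not state its strand, and the 22 shared exon bases are 0.295% of the exon bases of Col4a1 and 0.332% of those of Col4a2.

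The 2 genes were lower in KO than in WT cells. Col4a1 had 25.3, 26.7, 28.7 and 31 CPM in the KO paused libraries, 53.4, 44.9, 43.9 and 50.6 in KO normal, 62.9, 86.4, 55.9 and 66.8 in WT paused and 84, 106, 86 and 94.8 in WT normal, and Col4a2 had 14.4, 15.8, 17.4 and 20.2 CPM in the KO paused libraries, 19.7, 16.6, 16.1 and 17.4 in KO normal, 32.5, 45.2, 26.4 and 33.4 in WT paused and 35.7, 44.3, 32.8 and 37.2 in WT normal. Every KO library lay below every WT library of the same culture for both genes. In paused culture Col4a1 was lower in KO cells, with a log2 fold change of -1.28 ± 0.12 (edgeR adjusted p = 1.43e-07) and Col4a2 with one of -1.02 ± 0.15. In normal culture the values were -0.94 ± 0.12 for Col4a1 and -1.10 ± 0.15 for Col4a2. On pausing Col4a1 fell in KO (-0.79 ± 0.12) and WT cells (-0.45 ± 0.12) while Col4a2 had -0.04 ± 0.15 and -0.13 ± 0.14, neither past the threshold. The fall of Col4a1 in WT cells was -0.35, with no call, with replicates 1 and 2 alone. Whether the pausing responses of the 2 genes differed was not tested.

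Markers of primitive and parietal endoderm, cells that make large amounts of type IV collagen and laminin in the embryo, were also lower in KO cells in sum. The 13 listed genes, of which 11 were tested, summed to 17.7 to 20.7 CPM in KO paused, 16.9 to 21.5 in KO normal, 36.8 to 58.2 in WT paused and 46.6 to 81.3 in WT normal libraries. KO libraries lay below WT libraries in both cultures (exact permutation test, two-sided, p = 0.0286, the smallest that 4 against 4 can give). The sum was led by Cubn, which averaged 0.561 CPM in KO paused, 2.42 in KO normal, 7.96 in WT paused and 19.7 in WT normal libraries, and by Dab2, at 11.3, 4.01, 15.7 and 15.3 CPM in the same order of groups. Sox7 differed in direction in normal culture, at 4.96 CPM in KO normal against 3.61 CPM in WT normal libraries. Ttr and Afp, also in the list, had at most 4 counts in a library, while Amn and Hnf4a averaged 4.45 and 4.09 CPM in WT normal and 1.55 and 0.549 CPM in KO normal libraries. The part of endoderm-like cells in the type IV collagen result was not tested.

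The other type IV chains were low. Col4a5 averaged 0.526 ± 0.0336 CPM in KO paused, 0.145 ± 0.0497 in KO normal, 0.447 ± 0.0983 in WT paused and 0.275 ± 0.09 in WT normal libraries. It rose on pausing by 1.85 ± 0.26 in KO cells, with an interaction of 1.16 ± 0.36, and its rise of 0.69 ± 0.24 in WT cells lost the call without WT normal replicate 3 or 4 or WT paused replicate 1 or 2. Col4a3 and Col4a4 averaged at most 0.198 CPM in a group and passed in none of the 5 comparisons. Col4a6 was not tested. The 6 chains together summed to 11.7 ± 1.17 TPM in KO paused, 14.7 ± 0.771 in KO normal, 24.8 ± 5.49 in WT paused and 26.8 ± 2.39 in WT normal cells (SD, n = 4 each).

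Col18a1 was by far the most abundant collagen gene. It encodes the heparan sulfate proteoglycan of basement membranes whose fragment is endostatin, and it reached 259 ± 14 TPM in KO paused, 125 ± 10.03 in KO normal, 288 ± 26.6 in WT paused and 137 ± 5.84 in WT normal cells. In counts it had 823, 736, 832 and 750 CPM in the KO paused libraries, 406, 390, 424 and 433 in KO normal, 855, 831, 1021 and 959 in WT paused and 454, 472, 506 and 511 in WT normal. Paused libraries stood above normal libraries in both genotypes without overlap, and the rise was 0.93 ± 0.06 in KO and 0.92 ± 0.06 in WT cells. KO cells were lower, at -0.22 ± 0.06 in paused and -0.23 ± 0.06 in normal culture, where the paused groups overlapped and the normal groups did not. The paused value of Col18a1 was -0.11, with no call, with replicates 1 and 2 alone. Its relative Col15a1 was low, at 0.0973 ± 0.0492 CPM in KO paused and 0.381 ± 0.0629 CPM in WT paused libraries, and was lower in KO cells, at -1.97 ± 0.31 in paused and -2.00 ± 0.29 in normal culture.

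Fibrillar collagens, which form the fibrils of cartilage, bone and skin, were lower in KO cells for 5 of 9 tested genes in each culture and higher for 3 in paused and 1 in normal culture. Of all tested genes 34.5% were lower and 30.8% higher in paused culture, and 34.1% and 34.1% in normal culture. Col11a1, a fibril-nucleating chain gene, showed the largest pausing rise of any member. It had 16.6, 25.5, 15.5 and 23.5 CPM in the KO paused libraries, 2.81, 2.63, 2.15 and 2.28 in KO normal, 4.08, 5.01, 3.66 and 4.4 in WT paused and 1.48, 1.52, 2.3 and 2.92 in WT normal. KO paused libraries lay far above the 3 other groups, and both KO normal and WT normal libraries were low and overlapped. The rise was 3.04 ± 0.21 in KO cells (edgeR adjusted p = 2.55e-09) and 1.07 ± 0.21 in WT cells, and the responses differed by 1.97 ± 0.30. KO cells were higher by 2.24 ± 0.20 in paused culture, while the value in normal culture, 0.27 ± 0.22, did not pass. Its partner chain gene Col11a2 averaged 1.53 ± 0.349 CPM in KO paused, 0.744 ± 0.142 in KO normal, 0.68 ± 0.0938 in WT paused and 0.808 ± 0.0668 in WT normal libraries and also rose in KO cells, by 1.04 ± 0.17, with an interaction of 1.29 ± 0.24. In WT cells its value was -0.25 ± 0.18 and did not pass.

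Col5a1, which starts and limits the width of collagen fibrils, had 28.8, 28.8, 26 and 26.4 CPM in the KO paused libraries, 27, 24.5, 24.1 and 24.1 in KO normal, 22.7, 24.5, 20.6 and 21.6 in WT paused and 19.4, 19.1, 21.5 and 22 in WT normal. It was higher in KO cells by 0.30 ± 0.06 in paused and 0.28 ± 0.06 in normal culture, without overlap, and its pausing changes did not pass. The pausing rise of Col5a1 did pass in 12 alternatives in KO cells, at 0.12 to 0.18, and in 4 in WT cells, at 0.16 to 0.3. Its partner Col5a2 had the opposite sign between genotypes, at 0.35 ± 0.0648 CPM in KO paused against 1.57 ± 0.118 CPM in WT paused libraries, a log2 fold change of -2.16 ± 0.25, and at -2.07 ± 0.29 in normal culture. Col5a3 fell on pausing in KO cells (-0.87 ± 0.14) and had 0.18 ± 0.14 in WT cells, where it did not pass, and the responses differed by -1.05 ± 0.20. Col1a1 and Col1a2, the chains of type I collagen, averaged at most 1.88 and 0.41 CPM in a group, both in WT normal cells, and Col3a1 had at most 13 counts in a library. Col1a1 fell on pausing in KO (-0.94 ± 0.15) and WT cells (-1.32 ± 0.15). The fall of Col27a1 on pausing in WT cells (-0.23 ± 0.09) lost the call, at -0.24 to -0.18, without KO normal replicate 1 or 4, WT normal replicate 3 or 4, or WT paused replicate 2, 3 or 4, and its WT paused and WT normal libraries overlapped. The rise of Col27a1 on pausing in KO cells lost the call, at 0.27 to 0.33, with protein-coding transcripts alone and with replicates 3 and 4 alone. Col27a1 was lower in KO cells in normal culture, at -0.80 ± 0.10. Col2a1, the cartilage collagen, was lower in KO cells, at -1.24 ± 0.09 in paused and -1.40 ± 0.09 in normal culture. Its main coding transcript had 0.458 to 1.06 TPM in KO paused and 2.72 to 2.97 TPM in WT paused libraries. Part of its level came from non-coding transcripts, among them one with 1.80 to 2.60 TPM in KO paused and 0.0954 to 0.332 TPM in WT paused libraries. With counts built from TPM and length, over coding and non-coding transcripts together, the paused value of Col2a1 was 0.10, with no call.

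FACIT-type collagens sit on the surface of fibrils. Of 8 tested, 5 rose on pausing in KO and 4 in WT cells, and 5 were lower in KO cells in each culture. Of all tested genes 34.4% and 33.3% rose on pausing, and 34.5% and 34.1% were lower in KO cells in paused and normal culture. Col14a1 had 2.36, 1.22, 1.72 and 1.25 CPM in the KO paused libraries, 0.603, 0.607, 0.897 and 1.03 in KO normal, 4.61, 4.78, 5.11 and 4.84 in WT paused and 1.06, 1.07, 1.72 and 1.72 in WT normal. WT paused libraries were the highest and did not overlap the rest. With pausing it rose by 1.06 ± 0.23 in KO and 1.80 ± 0.22 in WT cells, and it was lower in KO cells, at -1.57 ± 0.21 and -0.82 ± 0.24 in paused and normal culture. Col20a1 and Col22a1 followed the same directions in all 4 comparisons, with pausing rises of 1.79 and 1.08 in KO and 1.41 and 0.73 in WT cells. With counts built from TPM and length Col22a1 kept these directions but lost the call in all 4. Its pausing values were then 0.60 in KO and 0.46 in WT cells, and KO over WT was -0.53 in paused and -0.67 in normal culture. Col12a1 was at 0.0219 ± 0.0134 CPM in KO paused and 0.0415 ± 0.00993 in KO normal libraries, against 0.279 ± 0.0547 in WT paused and 0.621 ± 0.182 in WT normal libraries, the lowest KO to WT ratio of any tested member. Its log2 fold changes were -3.63 ± 0.37 in paused and -3.87 ± 0.31 in normal culture, and with at most 5 counts in a KO library these fitted values rest on few reads. Col9a1 was also near this limit, at 0.0361 ± 0.0188 CPM in KO paused and 0.147 ± 0.0611 CPM in WT paused libraries. Col16a1 rose on pausing in KO cells by 0.69 ± 0.14 and had 0.15 ± 0.14 in WT cells, not past the threshold, while Col9a3 rose in WT cells by 0.36 ± 0.14 and had 0.07 ± 0.14 in KO cells, not past the threshold, with an interaction of -0.29 ± 0.20 that did not pass. Col9a2, a chain of the cartilage collagen type IX, was the most abundant of the class. It had 30.05, 27, 24.5 and 23.5 CPM in the KO paused libraries, 19.3, 17.6, 14.8 and 17.1 in KO normal, 19, 21.2, 20.2 and 20.6 in WT paused and 15.6, 16.6, 23.7 and 21.9 in WT normal. In KO cells it rose on pausing by 0.61 ± 0.12, and in WT cells its value was 0.06 ± 0.12, not past the threshold. For Col9a2 in WT cells the split of the normal libraries gave 0.32 with replicates 1 and 2 alone and -0.17 with replicates 3 and 4 alone, both past the threshold.

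Type VI collagen forms beaded filaments next to basement membranes. Its genes gave 4 of the 12 interactions that were more downward in KO cells, a call that 24.5% of all tested genes had. Col6a4, Col6a5 and Col6a6 lie side by side on chromosome 9, and Col6a5 had 5.71, 4.56, 5.28 and 4.23 CPM in the KO paused libraries, 4.24, 3.74, 4.62 and 4.62 in KO normal, 14.8, 14.4, 12.1 and 11.7 in WT paused and 5.87, 5.33, 5.5 and 6.33 in WT normal. WT paused libraries stood above all other groups. Col6a5 rose on pausing in WT cells by 1.20 ± 0.10 and had 0.20 ± 0.11 in KO cells, not past the threshold, a difference of -1.0 ± 0.15. Col6a4 had 5.11, 3.68, 4.66 and 3.21 CPM in the KO paused libraries, 6, 5.74, 6.19 and 6.04 in KO normal, 11.4, 11.6, 10.9 and 10.9 in WT paused and 9.24, 9.41, 5.92 and 6 in WT normal. It fell on pausing in KO cells (-0.53 ± 0.15) and rose in WT cells by 0.55 ± 0.15, and was the only member that passed in these opposite directions. For Col6a4, WT normal replicates 3 and 4 lay with the KO normal libraries, and with replicates 3 and 4 alone KO over WT in normal culture was 0.03, against -0.35 ± 0.15 with all. Col6a6 fell in KO cells (-1.88 ± 0.20) and had an interaction of -1.61 ± 0.28. Col6a1 and Col6a2 are neighbours on chromosome 10. Col6a2 averaged 1.58 ± 0.218 CPM in KO paused, 1.03 ± 0.288 in KO normal, 1.2 ± 0.0851 in WT paused and 0.492 ± 0.104 in WT normal libraries and rose in both genotypes, by 0.62 ± 0.18 and 1.28 ± 0.19. Its interaction of -0.66 ± 0.26 was at the edge of the threshold (edgeR adjusted p = 0.0496). Col6a3 rose by 1.51 ± 0.28 in KO and 1.11 ± 0.29 in WT cells.

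**Figure D2:**
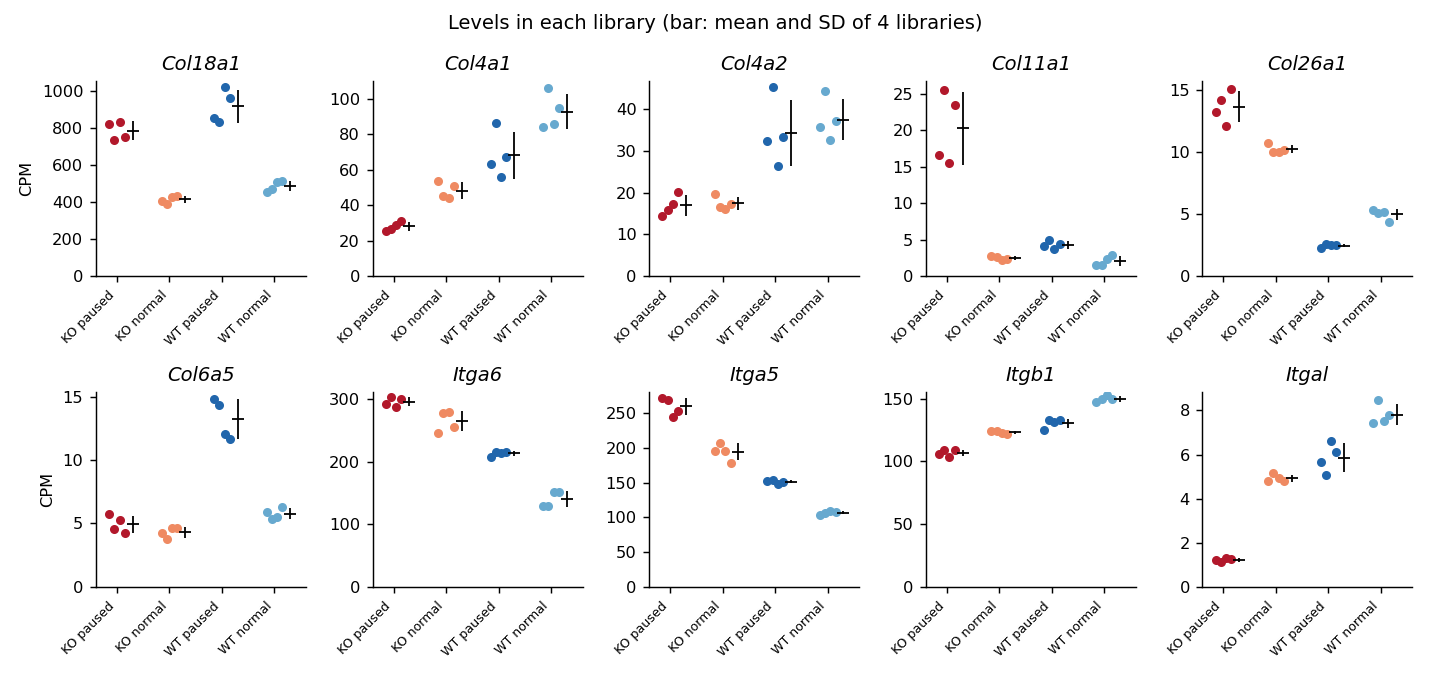
Levels, in CPM, of 6 collagen and 4 integrin genes in each library, on linear axes that start at 0. Coloured points are libraries and black bars are the mean and SD of 4 libraries. Col11a1 is high in KO paused libraries, Col6a5 in WT paused libraries, and Col4a1 and Col4a2 are lower in KO than in WT libraries of the same culture.

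Among the abundant collagens outside these families, Col26a1 had pausing responses of opposite sign in the genotypes. The gene encodes a secreted protein with short collagen-like stretches and had 13.3, 14.2, 12.1 and 15.1 CPM in the KO paused libraries, 10.8, 10.04, 10.03 and 10.1 in KO normal, 2.26, 2.55, 2.5 and 2.47 in WT paused and 5.34, 5.09, 5.14 and 4.37 in WT normal. All 4 groups were separate, with KO paused the highest and WT paused the lowest. Col26a1 rose on pausing in KO cells by 0.42 ± 0.07 and fell in WT cells (-1.03 ± 0.08), a difference of 1.44 ± 0.11 (edgeR adjusted p = 2.43e-08). KO cells were higher by 2.48 ± 0.08 in paused and 1.04 ± 0.08 in normal culture. Part of its TPM was assigned to transcripts annotated as non-coding. Col13a1, a membrane-spanning collagen of cell contacts, had 6.53, 6.6, 5.79 and 5.76 CPM in the KO paused libraries, 2.89, 3.56, 2.41 and 2.46 in KO normal, 9.78, 10.4, 6.17 and 6.31 in WT paused and 2.08, 1.78, 3.08 and 2.86 in WT normal. It rose on pausing in both genotypes, by 1.12 ± 0.20 in KO and 1.74 ± 0.20 in WT cells, and KO and WT libraries overlapped in each culture. The rise of Col13a1 in WT cells was 2.39 with replicates 1 and 2 alone and 1.06 with replicates 3 and 4 alone. Of the other membrane-spanning collagens Col17a1 and Col25a1 rose in both genotypes and Col23a1 passed nowhere. Col7a1, the anchoring fibril collagen, fell on pausing in WT cells (-0.53 ± 0.11) and was higher in KO cells by 0.89 ± 0.11 in paused culture. Col8a2, a network collagen of the cornea, was lower in KO cells, at -1.88 ± 0.18 in paused and -0.97 ± 0.18 in normal culture, and its relative Col8a1 averaged at most 0.119 CPM in a group and rose on pausing in KO cells by 1.5 ± 0.54.

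**Figure D3:**
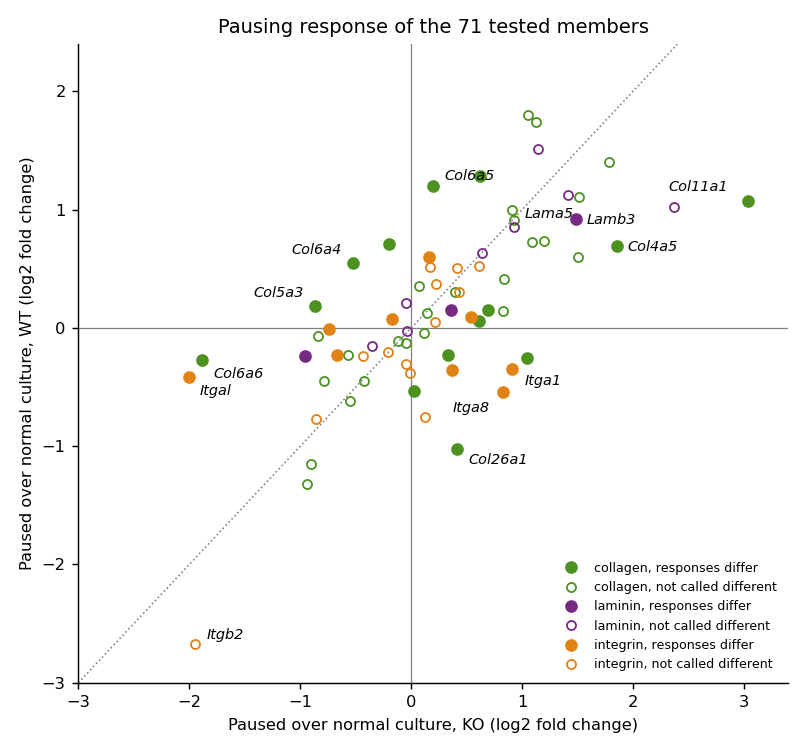
Log2 fold change on pausing in KO cells (x axis) and in WT cells (y axis) for the 71 tested members, coloured by family. Filled points passed the test of the difference between the 2 responses, and the dotted line marks equal responses. Col11a1 lies at 3.04 in KO and 1.07 in WT cells, and Itgal at -2.00 and -0.41.

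On pausing 6 of 15 tested integrin α genes rose in KO cells and 4 fell, and 2 of 7 tested β genes rose and 4 fell, where 34.4% of all tested genes rose and 32.8% fell. In WT cells the counts were 4 rising and 3 falling α genes and 2 rising and 3 falling β genes, where 33.3% of all tested genes rose and 27.5% fell. Whether α and β genes differed was not tested. Summed over all 18 α genes, with transcripts annotated as non-coding included, the level was 327 ± 17.1 TPM in KO paused, 238 ± 19.6 in KO normal, 237 ± 6.54 in WT paused and 139.9 ± 8.96 in WT normal cells. Summed over the 9 β genes it was 87.7 ± 3.37 TPM in KO paused, 84.4 ± 2.29 in KO normal, 110 ± 2.66 in WT paused and 96.5 ± 2.71 in WT normal cells (SD, n = 4 each). The α sum was higher in KO than in WT cells of the same culture and the β sum was lower, with no overlap between libraries in either.

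The laminin receptor gene Itga6 had the highest TPM of the α genes over all annotated transcripts, at 146 ± 5.94 TPM in KO paused, 114 ± 10.5 in KO normal, 106 ± 2.75 in WT paused and 57.9 ± 4.06 in WT normal cells. A transcript annotated as non-coding held 48.1 to 55.5 TPM of this in KO paused libraries. The main coding transcripts of Itga6 had 55.5 to 60.5 and 16.4 to 19.1 TPM there, and that of Itga5 had 87 to 100.4 TPM. The rank of Itga6 thus rests on non-coding transcripts. Itga6 had 292, 303, 287 and 299 CPM in the KO paused libraries, 246, 277, 279.7 and 255 in KO normal, 207, 216, 213 and 216 in WT paused and 129, 129.7, 151 and 152 in WT normal. No 2 groups overlapped. Its rise on pausing was 0.16 ± 0.05 in KO cells (edgeR adjusted p = 0.013), a call that ended without KO normal replicate 1, where the value was 0.12. In WT cells it rose by 0.60 ± 0.05, and the responses differed by -0.44 ± 0.08. KO cells were higher by 0.47 ± 0.05 in paused and 0.91 ± 0.05 in normal culture. Itga3, another α chain gene that pairs with Itgb1 to bind laminin, had 110, 105, 101 and 94.9 CPM in the KO paused libraries, 82.2, 93.6, 99.5 and 89.97 in KO normal, 106, 109, 102 and 99.9 in WT paused and 57, 60.1, 87.8 and 87.9 in WT normal. WT normal replicates 1 and 2 were the lowest of all libraries. It rose in WT cells by 0.51 ± 0.12 and had 0.17 ± 0.12 in KO cells without passing, and the difference between the responses did not pass (edgeR adjusted p = 0.128).

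Fibronectin is bound by the products of Itga5 and Itgav. Itga5 had 273, 269, 246 and 253 CPM in the KO paused libraries, 196, 208, 196 and 179 in KO normal, 152, 154, 149 and 151 in WT paused and 104, 107, 109 and 108 in WT normal. The groups were again separate, in the order KO paused, KO normal, WT paused and WT normal. With pausing it rose by 0.42 ± 0.04 in KO and 0.50 ± 0.04 in WT cells and was higher in KO cells by 0.78 ± 0.04 in paused and 0.87 ± 0.04 in normal culture. Fn1, fibronectin itself, had the same signs, with pausing rises of 0.72 in KO and 1.24 in WT cells and KO over WT values of 0.85 in paused and 1.37 in normal culture. Itgav had 22.5, 24.5, 19.5 and 21.8 CPM in the KO paused libraries, 25.6, 26, 24 and 23.6 in KO normal, 15.2, 16.9, 16.2 and 16.4 in WT paused and 16.4, 15.7, 15.4 and 13.8 in WT normal. It was higher in KO cells by 0.45 ± 0.07 in paused and 0.69 ± 0.07 in normal culture. Its fall on pausing in KO cells (-0.17 ± 0.07) lost the call, at -0.16 to -0.11, without any of 6 libraries in turn. Itga9, a receptor gene for tenascin and other ligands, had 67.7, 62.7, 67.9 and 63.3 CPM in the KO paused libraries, 41, 41.2, 45.4 and 43.3 in KO normal, 48, 47, 42.8 and 43 in WT paused and 31.3, 29.8, 31.7 and 33 in WT normal and rose by 0.61 ± 0.05 in KO and 0.52 ± 0.05 in WT cells.

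Itgb1 encodes the β1 chain that pairs with most of these α chains. It had 106, 109, 104 and 109 CPM in the KO paused libraries, 124, 124, 123 and 122 in KO normal, 125, 133, 131 and 133 in WT paused and 147, 150, 153 and 149.9 in WT normal. It fell on pausing in KO (-0.21 ± 0.03) and in WT cells (-0.20 ± 0.03), and KO cells were lower, at -0.29 ± 0.03 in paused and -0.28 ± 0.03 in normal culture. The 4 groups did not overlap in any of these comparisons. Itgb1 thus ran opposite to Itga6 and Itga5 in all 4 comparisons. Itgb4, the partner of Itga6 at epithelial anchoring sites, had 8.99, 10.3, 9.65 and 9.63 CPM in the KO paused libraries, 8.52, 8.09, 8.07 and 8.27 in KO normal, 16.7, 17.2, 14.3 and 15.4 in WT paused and 12.5, 11.7, 12.5 and 12.5 in WT normal. Itgb4 rose on pausing by 0.23 ± 0.06 and 0.37 ± 0.06 in KO and WT cells and was lower in KO cells, at -0.72 ± 0.06 and -0.58 ± 0.06 in paused and normal culture, so it differed from Lamb3 in the direction between genotypes. Itgb5, a partner of Itgav, averaged 37.7 ± 2.11 CPM in KO paused and 28 ± 1.43 in KO normal, and 37.5 ± 0.654 in WT paused and 30.5 ± 2.26 in WT normal libraries, and rose on pausing in both. Itgb3, another partner of Itgav, was higher in KO cells by 0.42 ± 0.12 in paused and 0.62 ± 0.12 in normal culture. Itgb6 averaged 0.636 ± 0.0779 CPM in KO paused and 0.408 ± 0.0494 CPM in WT paused libraries, with an interaction of 0.72 ± 0.25.

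Itgb7, Itgal, Itgae, Itgam and Itgb2 encode integrin chains best known from white blood cells. Itgb7 was the most abundant of them, at 15.9 ± 2.5 TPM in KO paused, 20.03 ± 0.847 in KO normal, 26.5 ± 1.17 in WT paused and 24.2 ± 0.942 in WT normal cells. It fell on pausing in both genotypes, with -0.67 ± 0.07 in KO and -0.23 ± 0.07 in WT cells and an interaction of -0.45 ± 0.09. Itgal had 1.22, 1.11, 1.33 and 1.27 CPM in the KO paused libraries, 4.81, 5.17, 4.92 and 4.82 in KO normal, 5.64, 5.06, 6.62 and 6.14 in WT paused and 7.45, 8.48, 7.53 and 7.79 in WT normal. KO paused libraries lay far below all others. It fell on pausing in KO (-2.00 ± 0.09) and in WT cells (-0.41 ± 0.08), and the responses differed by -1.59 ± 0.13 (edgeR adjusted p = 3.28e-08). Itgae fell in KO (-0.86 ± 0.10) and WT cells (-0.77 ± 0.10). Itgb2, at 0.734 CPM or less in each group, fell in KO (-1.95 ± 0.55) and WT cells (-2.67 ± 0.40). Itgam fell in KO cells (-0.74 ± 0.19), but 68.7% of its exon bases are shared with the gene model Gm49368 on the same strand, so its counts are uncertain. Of 6 blood markers, Ptprc averaged at most 0.219 CPM in a group and Tyrobp and Hbb-bs at most 0.00785 CPM. Their sum, led by Cd68, was 7.95 to 9.58 CPM in KO paused, 9.94 to 11.2 in KO normal, 10.2 to 10.99 in WT paused and 15.7 to 16.6 in WT normal libraries, and its part in these values was not tested.

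Collagen-binding integrin genes were low. Itga1 had 1.67, 1.45, 1.61 and 1.5 CPM in the KO paused libraries, 0.745, 0.761, 1.04 and 0.772 in KO normal, 2.41, 2.14, 2.9 and 3.19 in WT paused and 3.35, 2.43, 3.64 and 4.14 in WT normal. Itga1 rose on pausing in KO cells by 0.91 ± 0.17 and had -0.35 ± 0.15 in WT cells without passing, a difference of 1.26 ± 0.23. It was lower in KO cells, at -0.77 ± 0.16 in paused and -2.03 ± 0.17 in normal culture. Itga10 shares 33.5% of its exon bases with the gene model Gm42957 and is uncertain. Itga11 did not pass in any comparison, and Itga2 was not tested. Itga8, a receptor gene for nephronectin, rose on pausing in KO cells by 0.82 ± 0.15 and fell in WT cells (-0.54 ± 0.15), a difference of 1.37 ± 0.21. Its rise in KO cells was 0.45, with no call, with counts built from TPM and length. Its fall in WT cells was -0.31, with no call, with replicates 3 and 4 alone. Itga4 rose in KO cells by 0.54 ± 0.10 and was lower in KO cells, at -0.74 ± 0.10 and -1.18 ± 0.10 in paused and normal culture, with 8.04% of its exon bases shared with Cerkl on the other strand. Itga7, a laminin receptor gene of muscle, was higher in KO cells by 0.49 ± 0.13 in paused and 0.33 ± 0.13 in normal culture. Itga2b, the platelet fibrinogen receptor gene, was higher in KO cells in paused culture by 0.52 ± 0.17.

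**Figure D4:**
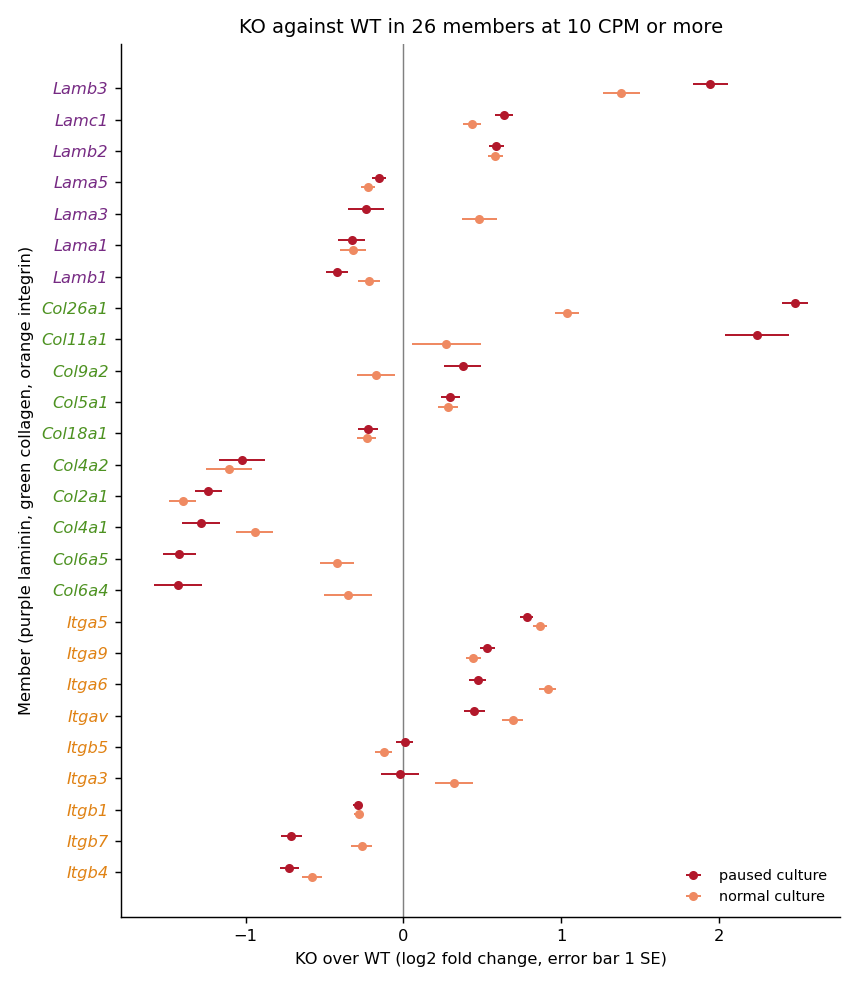
KO over WT log2 fold change with 1 SE in paused and normal culture, for 26 of the 27 members with a group mean of at least 10 CPM, grouped by family. Values above 0 are higher in KO cells. Lamc1 lies at 0.64 in paused and 0.43 in normal culture, Col4a1 at -1.28 and -0.94, and Itgb1 at -0.29 and -0.28.

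Other markers also moved with genotype and culture. A fibroblast list of 12 genes, 6 of them tested, summed to 32.0 to 34.1 CPM in KO paused, 45.8 to 48.1 in KO normal, 17.8 to 19.3 in WT paused and 16.1 to 23.8 in WT normal libraries. It was led by Thy1 and Pdgfrb, while Postn, Lum and Dpt had at most 6 counts in a library and Dcn at most 16. A trophoblast list of 10 genes, led by Krt8 and Krt18, summed to 48.8 to 57.5 CPM in KO paused and 34.5 to 36.6 in KO normal, and to 44.4 to 52.7 in WT paused and 36.6 to 52.2 in WT normal libraries. A mesoderm list of 6 genes, led by Kdr, summed to 8.39 to 8.96 CPM in KO paused and 4.21 to 6.59 in KO normal, and to 15.9 to 21.2 in WT paused and 3.70 to 6.44 in WT normal libraries. A neural list of 6 genes summed to 123 to 139 CPM in KO paused and 167.5 to 190.1 in KO normal, and to 125.5 to 146 in WT paused and 138 to 173 in WT normal libraries. Their part in the laminin, collagen and integrin values was not tested.

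Genes that act beside the members were taken from lists of partners. Of 20 partners of the basement membrane, 11 rose and 4 fell on pausing in KO cells and 10 rose and 6 fell in WT cells, with medians of 0.56 and 0.48. Npnt, a ligand of the integrin encoded by Itga8, rose by 1.53 ± 0.14 and Hspg2, perlecan, by 0.99 ± 0.08 in KO cells. Agrn, agrin, rose by 1.43 ± 0.06 in WT cells. Vwa1 fell in KO (-3.41 ± 0.19) and WT cells (-1.02 ± 0.17). Between genotypes 6 partners were higher and 9 lower in paused culture and 6 higher and 8 lower in normal culture, and Smoc1 was the lowest in KO cells, at -2.29 ± 0.10 and -2.30 ± 0.10. The background on pausing was 34.4% of all tested genes rising and 32.8% falling in KO cells, and 33.3% and 27.5% in WT cells. Between genotypes it was 30.8% higher and 34.5% lower in paused culture, and 34.1% and 34.1% in normal culture. All partner lists are read beside these shares.

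Genes that fold and export collagen were split between the genotypes. Of 22 genes, 10 were higher and 7 lower in KO cells in paused culture, and again 10 and 7 in normal culture. The background was 30.8% higher and 34.5% lower in paused culture, and 34.1% and 34.1% in normal culture. Serpinh1, the collagen chaperone HSP47, was higher in KO cells by 2.20 ± 0.12 in paused and 2.21 ± 0.12 in normal culture, and Fkbp10, a collagen isomerase, by 2.07 ± 0.10 and 1.69 ± 0.10. P4ha1, a prolyl hydroxylase subunit gene, was lower, at -0.90 ± 0.16 in paused culture. On pausing 7 of the 22 rose and 9 fell in KO cells, and 4 rose and 8 fell in WT cells. Among all tested genes 34.4% rose and 32.8% fell in KO cells, and 33.3% and 27.5% in WT cells. Of 12 tested processing and crosslinking genes, 2 rose and 5 fell in KO and 5 rose and 2 fell in WT cells, and the crosslinking enzyme gene Loxl2 had an interaction of -1.85 ± 0.23.

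Of 24 genes of the integrin adhesion machinery, 7 rose and 8 fell on pausing in KO cells, and 14 rose and 6 fell in WT cells. Of all tested genes 34.4% rose and 32.8% fell in KO cells, and 33.3% and 27.5% in WT cells. The interaction was more downward in KO cells for 12 and more upward for 5 of the 24, beside 24.5% and 17.4% of all tested genes. It was led downward by Fermt1, kindlin-1, at -1.43 ± 0.23. Zyx, zyxin, rose in KO and WT cells by 1.27 ± 0.05 and 1.07 ± 0.05. In normal culture 15 were higher and 4 lower in KO cells, led by Tns1, tensin 1, at 2.55 ± 0.13, and in paused culture 10 were higher and 5 lower. Of all tested genes 34.1% were higher and 34.1% lower in normal culture, and 30.8% and 34.5% in paused culture. Of 20 matrix proteases and inhibitors, 12 were higher and 5 lower in KO cells in normal culture and 11 and 5 in paused culture. Mmp14, a membrane-bound matrix protease gene, was higher by 1.94 ± 0.06 and the inhibitor gene Timp2 by 2.28 ± 0.11 in normal culture. On pausing 6 of these 20 rose and 8 fell in KO and 8 rose and 5 fell in WT cells. Of 12 other matrix receptors, 7 were higher and 3 lower in KO cells in each culture, and Sdc1, syndecan 1, fell on pausing in KO cells (-2.00 ± 0.06).

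MicroRNAs of the miR-29 family are known to bind collagen mRNAs, and canonical microRNAs are made through Dgcr8, so the 3′ UTRs of the members were searched for the seed match. The mature sequences, from RefSeq with GRCm38.p6, share the seed at bases 2 to 8, in capitals, and are shown because the search rests on it. The small RNAs themselves were not measured here.
miR-29a-3p: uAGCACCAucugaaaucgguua
miR-29b-3p: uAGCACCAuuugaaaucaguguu
miR-29c-3p: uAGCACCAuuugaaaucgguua
The match TGGTGCT was looked for on the transcript strand of the longest annotated 3′ UTR of each gene. It was found in 28 of the 71 tested members, or 39.4%, and in 2476 of 16675 tested coding genes, or 14.8%. Of the collagens 22 of 38 held it, or 57.9%, of the laminins 1 of 11 and of the integrins 5 of 22. Sites per kilobase were 0.712 in collagens, 0.15 in laminins, 0.145 in integrins and 0.109 over all these genes. Median UTR lengths were 1110 bases for the members and 1134 for all tested coding genes.

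Examples from the collagens and from the laminin and integrin genes discussed above show the match, in capitals, with 17 bases before it and 3 after it. Coordinates in GRCm38 are of the match, in the last exon of each transcript.
Col4a1, chr8:11199762-11199768, minus strand: ctgccaccgtcacaacaTGGTGCTact
Col4a2, chr8:11448359-11448365, plus strand: gtgtgggaaggccacgtTGGTGCTtat
Col5a1, chr2:28038350-28038356, plus strand: cagttgctgaatgtttgTGGTGCTaat
Col11a1, chr3:114219083-114219089, plus strand: tcctatttggatttcgtTGGTGCTgta
Lamc1, chr1:153220069-153220075, minus strand: actattatctgacacacTGGTGCTatt
Itga5, chr15:103344755-103344761, minus strand: agaacactaaccgtggaTGGTGCTgca
Itgb1, chr8:128732875-128732881, plus strand: tttttttctttaattccTGGTGCTcct
An A follows the match shown in Col4a1, Col5a1 and Lamc1, a context known to strengthen binding, and not in the other 4. Col5a1 has 4 matches and Col4a2 and Col11a1 have 2 each, so not every match is shown. No A follows the matches of Col5a1 at UTR positions 988 and 1706.

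Members with a match were not all higher in KO cells. In normal culture 8 of the 28 were higher and 12 lower in KO cells, with a median of -0.26 on the log2 scale, and of the 43 without a match 10 were higher and 20 lower, with a median of -0.22. In paused culture 10 of the 28 were higher and 11 lower, with a median of 0.13, against 12 and 19 of the 43 and a median of -0.15. Over all tested coding genes 42.5% of those with a match were higher and 30.8% lower in KO cells in normal culture, and 36.9% and 33.8% of those without. Lamc1, Itga5, Col5a1 and Col26a1 had a match and were higher in KO cells in both cultures, whereas Col4a1, Col4a2 and Itgb1 had a match and were lower in both. Matches to the seed of the family of miR-294, the main microRNAs of ESCs, were in 11.3% of the members and 16.6% of all tested coding genes, and matches to that of let-7 in 14.1% and 10.5%. Over all tested coding genes in normal culture, 41.4% with a miR-294 family match were higher and 29.8% lower in KO cells, against 37.1% and 34.0% without. For let-7 the shares were 41.0% and 31.3% with a match, against 37.4% and 33.6% without. The miR-29 split was thus close to those of the 2 other seeds. Median UTR lengths were 2499 bases with a miR-29 match and 978 without, and the part of UTR length was not tested.

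**Figure D5:**
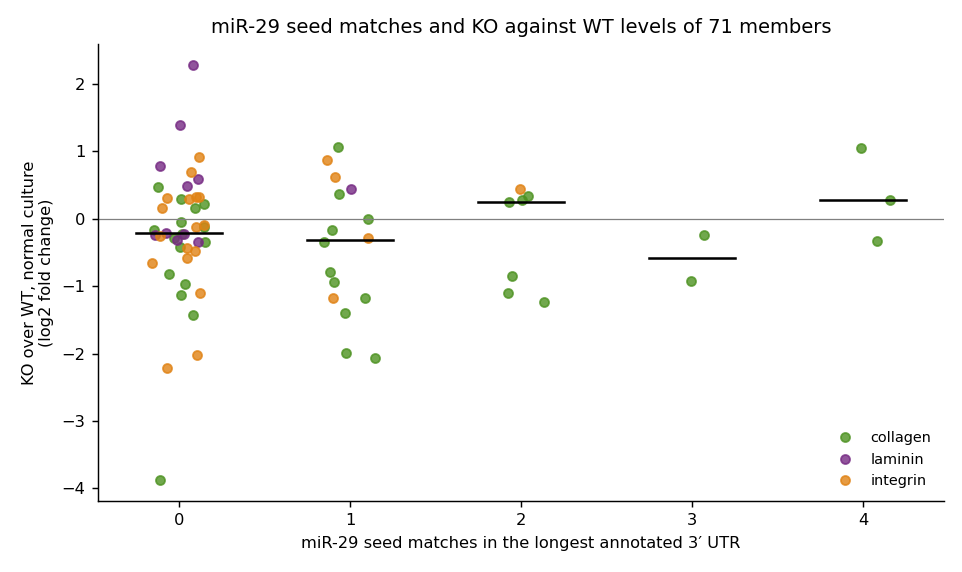
Number of miR-29 seed matches in the longest annotated 3′ UTR (x axis, points spread sideways) and KO over WT log2 fold change in normal culture (y axis) for the 71 tested members, coloured by family. Black bars are medians, and the values of members with and without a match overlap, with medians of -0.26 over the 28 with a match and -0.22 over the 43 without.

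Col4a3bp, the ceramide transfer protein gene, had 37.7, 37.9, 35.4 and 35.7 CPM in the KO paused libraries, 41, 43.5, 40.9 and 41.4 in KO normal, 36.3, 37.9, 40.9 and 42.2 in WT paused and 54.3, 54.5, 47.4 and 46.1 in WT normal. It fell on pausing in KO (-0.19 ± 0.06) and WT cells (-0.36 ± 0.06) and was lower in KO cells, at -0.28 ± 0.06 in normal culture, and its value of -0.10 ± 0.06 in paused culture did not pass.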

How the data were processed

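Poly(A) RNA-seq libraries of mouse ESCs were used, 4 groups of 4. Per the file headers, the authors deposited estimated counts, TPM (transcripts-per-million) and effective lengths for each of 118489 transcripts. Reads were quantified with kallisto on GRCm38, per the submitters' processing notes; the version, trimming and strand setting were not given in the sources used here. Estimated counts were summed per gene by GENCODE M21 annotation and rounded (116728 transcripts matched; the others held 0.656 to 0.712% of counts).

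Genes passed edgeR's low-count filter at a minimum count of 10, leaving 18944, and were scaled by TMM (factors 0.933 to 1.07). One mean per group was fitted over all 16 libraries and tested two-sided with edgeR 4.0.16 (robust quasi-likelihood F test, R 4.3.3), with Benjamini-Hochberg adjustment over all genes and a threshold of 0.05. CPM values use TMM-scaled library sizes; SDs are over 4 libraries. TPM was summed per gene. Counting error is small at this depth, and a gene with no counts allows up to 3 counts in a library. The procedure was tested on simulated data.

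Alternatives were median-of-ratios factors, no filter, DESeq2 1.42.0, the compared groups alone, a replicate block, counts built from TPM and length, protein-coding transcripts alone, replicates 1 and 2 or 3 and 4 (alone or as a term), and leaving out each library. Seed matches were read from the longest M21 3′ UTR.

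Members and lists were chosen with earlier results of these data known. Genes named were those with a group mean of at least 10 CPM, all tested type IV collagens and laminins, and the 10 largest changes each way per comparison among expressed members past the threshold; of partner lists, the 2 largest each way. The values of 1 laminin chain are not reported here, though the chain stays in the counts. Other named members (Col1a2, Col5a2, Col8a1, Col9a1, Col11a2, Col12a1, Col15a1, Col23a1, Itga11, Itgb2 and others) were named after their values were seen, to account for every member.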

Additional observations from a re-analysis of the deposited data

Results flagged for a closer look

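The response to pausing differed between KO and WT cells for 26 members by the test of the interaction, given as the KO response minus the WT response on the log2 scale. Collagens with a positive value were Col11a1 at 1.97, Col26a1 at 1.44, Col11a2 at 1.29, Col4a5 at 1.16, Col7a1 at 0.56, Col27a1 at 0.56, Col9a2 at 0.55 and Col16a1 at 0.54. Collagens with a negative value were Col6a6 at -1.61, Col6a4 at -1.07, Col5a3 at -1.05, Col6a5 at -1.0, Col8a2 at -0.91 and Col6a2 at -0.66. The laminin chains were Lamb3 at 0.56, Lamc1 at 0.20 and Lama3 at -0.72. Integrin genes with a positive value were Itga8 at 1.37, Itga1 at 1.26, Itgb6 at 0.72 and Itga4 at 0.44. Integrin genes with a negative value were Itgal at -1.59, Itgam at -0.73, Itgb7 at -0.45, Itga6 at -0.44 and Itgav at -0.24. Several of these were weak. In turns that left out 1 of the 16 libraries, the call was lost 12 times for Itgav and 11 times for Col6a2. It was lost 8 times each for Lamc1, Col16a1 and Itgam. For Col4a5 the call was lost with replicates 1 and 2 alone and with replicates 3 and 4 alone.

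In 14 of 212 groups of 4 libraries, 1 library lay far from the other 3 by Dixon's criterion, which chance gives in about 1 of 20 groups. In KO paused cells these were replicate 1 for Col1a1, at 0.905 CPM against 0.710 to 0.743 in the others, replicate 2 for Lama2, at 0.525 CPM against 0.365 to 0.379, and replicate 2 for Col4a5, at 0.476 CPM against 0.538 to 0.550. In KO normal cells replicate 4 had 5.24 CPM of Col2a1 against 4.21 to 4.38, and 0.0429 CPM of Lamc3 against 0.153 to 0.159. Replicate 1 of the same group had 26.95 CPM of Col5a1 against 24.1 to 24.5, and 10.8 CPM of Col26a1 against 10.03 to 10.1. Replicate 3 had 1.04 CPM of Itga1 against 0.745 to 0.772, and 21.7 CPM of Lama3 against 20.1 to 20.4. Replicate 2 had 43.5 CPM of Col4a3bp against 40.9 to 41.4. In WT paused cells replicate 2 had 167 CPM of Lama1 against 140.8 to 143.5, replicate 4 had 2.69 CPM of Col7a1 against 2.03 to 2.13, and replicate 1 had 0.229 CPM of Col4a4 against 0.0491 to 0.0774. In WT normal cells replicate 2 had 11.7 CPM of Itgb4 against 12.48 to 12.49. No cause was tested.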

How the results depend on the processing

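Counts of members past the threshold stayed within 1.5 times their value in every alternative, apart from members with a more upward pausing response in KO cells. These numbered 14, against 8 with counts built from TPM and length and 9 with replicates 1 and 2 alone; the cause was not tested. Leaving out each library gave 33 to 36 higher and 14 to 16 lower members for pausing in KO cells, 24 to 29 and 12 to 16 for pausing in WT cells, 11 to 15 and 9 to 13 for the interaction, 22 to 24 and 28 to 32 for KO against WT in paused culture, and 15 to 20 and 26 to 32 in normal culture. Over 265 results for named members, leaving out a library kept direction and call in 4058 of 4240 cases, ended the call in 120, brought one in 62 and turned the direction in 0. Other alternatives kept both in 2418 of 2595 cases, ended the call in 96, brought one in 70 and turned the direction in 11. With counts built from TPM and length these were Col2a1 for pausing in WT cells (0.29) and for KO against WT in paused culture (0.10), Lamb3 for the interaction (-0.09) and Col1a1 for KO against WT in normal culture (0.02). With protein-coding transcripts alone it was Col2a1 for pausing in KO cells (-0.23). With replicates 1 and 2 alone they were the interaction of Lamb2 (-0.17) and KO against WT in normal culture for Col9a2 (0.20). With replicates 3 and 4 alone they were pausing in WT cells for Col9a2 (-0.17), the interaction of Lamc1 (-0.01), and KO against WT in normal culture for Col6a4 (0.03) and Col13a1 (-0.29). Their causes were not tested. Same-numbered libraries of 2 groups correlated from -0.166 to 0.459 in their deviations, so replicate numbers were not taken as pairs; with the replicate block the counts were 34 and 15, 28 and 15, 13 and 12, 23 and 30, and 20 and 31 in the order of comparisons above. No separate fit of the interaction exists for the compared groups alone, since it uses all 4 groups. Depth limits the 11 untested members, which had at most 18 counts in a library.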
